A study of Mus musculus with 4 samples.

Results

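The 10 genes described here encode parts of the Toll-like receptor (TLR) and NF-kB signalling pathway, and were taken as the rows of the deposited tables whose symbol was Tlr2, Tlr4, Cd14, Myd88, Rela, Relb, Nfkb1, Nfkb2, Nfkbia or Tnfaip3. All 10 were found among the 22609 genes listed, all 10 had reads in every library, and all 10 passed the filter on low counts that 14978 genes passed. They were measured by RNA sequencing of the hippocampus of C57BL/6 mice. The tested mice, PELP1 FBKO, are a forebrain knockout of the estrogen receptor co-regulator PELP1, and the controls are FLOXED mice, with 2 libraries in each genotype. Both genotypes were ovariectomized, were implanted with mini pumps delivering estradiol (E2), and were subjected to GCI, a global cerebral ischemia in which the blood supply of the whole brain is interrupted for a time, with tissue taken after 24 h of reperfusion. Every library therefore carries ischemia and estradiol, and neither can be set against an untreated state. The sources used here do not give the driver of the deletion, the deleted part of Pelp1 or the animals' age. Samples were run in duplicate, and whether the libraries FBKO 1 and 2, or FLOXED 1 and 2, are from different mice is not stated, so the p-values measure the spread between these libraries, which may be technical.

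Toll-like receptors are membrane sensors of microbial molecules and of molecules released by injured cells. Through adaptors such as MyD88 they switch on kinases that free NF-kB, a family of dimeric transcription factors, from its cytoplasmic inhibitors, and NF-kB then raises cytokine, chemokine and survival genes together with its own inhibitors, which closes a negative feedback loop. In the brain, microglia carry most of the Toll-like receptors, whereas NF-kB subunits are found in neurons, glia and vessels alike.

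NF-kB dimers bind DNA at kappaB motifs, so promoter sequence was searched for them. RefSeq windows of GRCm38.p6 ran from 250 bases before to 50 bases after a start site. They were used for 6 of the 10 genes (Tlr2, Myd88, Rela, Nfkb2, Nfkbia and Tnfaip3) and not for Tlr4, Cd14, Relb and Nfkb1. For the 10 genes, but not for the share over all windows, those on 1 chromosome were left out. A gene without a window here may therefore still have one. The windows were searched on both strands for GGGNNTTTCC and for the classical kappaB consensus. That broader motif of 10 bases was added after the matches to GGGNNTTTCC were seen. It covers those seen in these genes, but needs a purine after the opening G bases, so not every GGGNNTTTCC sequence matches it. The consensus lay in 8.46% of all 32851 windows and the narrower form in 1.63%. Of the 6 genes, 4 had the consensus in at least 1 window (Tlr2, Nfkb2, Nfkbia and Tnfaip3), and 3 of those (Nfkb2, Nfkbia and Tnfaip3) had the narrower form. Counted by window, 6 of the 9 windows of these genes held the consensus and 5 of the 9 the narrower form, where Nfkb2 had 3 windows, the second and the third of which overlap and share a match, and Tnfaip3 had 2. The windows of Rela and Myd88 held neither, which says only that these letters are not there. A match describes the sequence and is not a measured binding site. The receptor Tlr2 and the adaptor Myd88 were lowest in PELP1 FBKO 1, while the feedback inhibitors Nfkbia and Tnfaip3 were not. The windows printed are those of these 4 genes. They read 5′ to 3′ on the strand of the gene, which is the minus strand for these 4, and capitals mark bases covered by a match to the consensus on either strand, overlapping matches included. Tlr2 lies at chr3:83841559-83841858, Myd88 at chr9:119339969-119340268, Nfkbia at chr12:55492598-55492897 and the first of the windows of Tnfaip3 at chr10:19015361-19015660.
Tlr2: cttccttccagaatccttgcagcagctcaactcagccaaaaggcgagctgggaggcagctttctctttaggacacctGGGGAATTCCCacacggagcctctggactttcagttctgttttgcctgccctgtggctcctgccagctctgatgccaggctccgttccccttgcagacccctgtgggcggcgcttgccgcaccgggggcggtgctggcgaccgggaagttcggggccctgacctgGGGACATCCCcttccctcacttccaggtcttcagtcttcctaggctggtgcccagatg
Myd88: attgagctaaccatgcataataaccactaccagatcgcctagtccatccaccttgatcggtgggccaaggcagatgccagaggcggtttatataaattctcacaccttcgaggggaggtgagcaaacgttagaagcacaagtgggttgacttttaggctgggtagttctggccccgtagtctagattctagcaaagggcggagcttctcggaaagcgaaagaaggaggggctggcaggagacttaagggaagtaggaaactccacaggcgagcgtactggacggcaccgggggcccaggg
Nfkbia: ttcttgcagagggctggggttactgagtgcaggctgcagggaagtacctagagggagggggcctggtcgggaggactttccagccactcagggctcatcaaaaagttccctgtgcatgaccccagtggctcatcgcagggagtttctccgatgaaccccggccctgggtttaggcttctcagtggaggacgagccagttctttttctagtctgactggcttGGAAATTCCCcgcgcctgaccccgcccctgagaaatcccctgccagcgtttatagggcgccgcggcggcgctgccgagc
Tnfaip3: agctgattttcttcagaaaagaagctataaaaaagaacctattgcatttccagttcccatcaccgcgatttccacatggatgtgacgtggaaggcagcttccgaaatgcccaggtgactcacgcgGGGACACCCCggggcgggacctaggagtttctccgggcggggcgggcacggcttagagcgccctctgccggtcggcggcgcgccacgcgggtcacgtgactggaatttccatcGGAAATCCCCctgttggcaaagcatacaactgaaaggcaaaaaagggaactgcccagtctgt

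Reads assigned to genes came to 22447658 and 19882952 in the PELP1 FBKO libraries and to 17524594 and 21921862 in the FLOXED libraries. Replicates differed beyond sampling noise, with a chi-square per degree of freedom of 17.4 for the PELP1 FBKO pair and 23.3 for the FLOXED pair, so each library counted as a separate sample. PELP1 FBKO 1 stood apart from PELP1 FBKO 2 in several receptor and target genes. Not all of these genes are named, and for those that are, results are given with and without each of the libraries. Levels are in CPM, counts relative to library size, after TMM scaling, which corrects for library composition. A log2 fold change is that of PELP1 FBKO over FLOXED, given with their standard error (SE), and adjusted p-values are from edgeR's quasi-likelihood test over all 14978 genes, with a threshold of 0.05. Pelp1, the targeted gene, was at 18.0 and 17.3 CPM in PELP1 FBKO and at 26.7 and 26.2 CPM in FLOXED, a log2 fold change of -0.59 (SE 0.149) that did not pass the threshold (edgeR adjusted p = 0.130). The hippocampal neuron markers Hpca, the hippocalcin gene, and Prox1, a granule cell transcription factor, had at least 443 reads in every library.

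None of the 10 genes passed the threshold in edgeR's quasi-likelihood test. The same test called 0% of all genes, as did limma-voom, while DESeq2 called 3.09% of all genes and none of the 10. At an unadjusted p under 0.05 edgeR gave 2 of the 10, Relb and Myd88, both lower in PELP1 FBKO, where 5.55% of all genes were on that side and 15.6% on either. The libraries of the genotypes did not overlap for 3 of the 10 genes, with Relb and Myd88 below and Nfkbia above in PELP1 FBKO. Among all tested genes 23.0% lay wholly below, 25.4% wholly above and 48.4% on either side. The median log2 fold change of the 10 was -0.055, with 3 positive and 7 negative values between -0.79 and 0.31, against a median of 0.0002 over all tested genes.

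**Figure D1:**
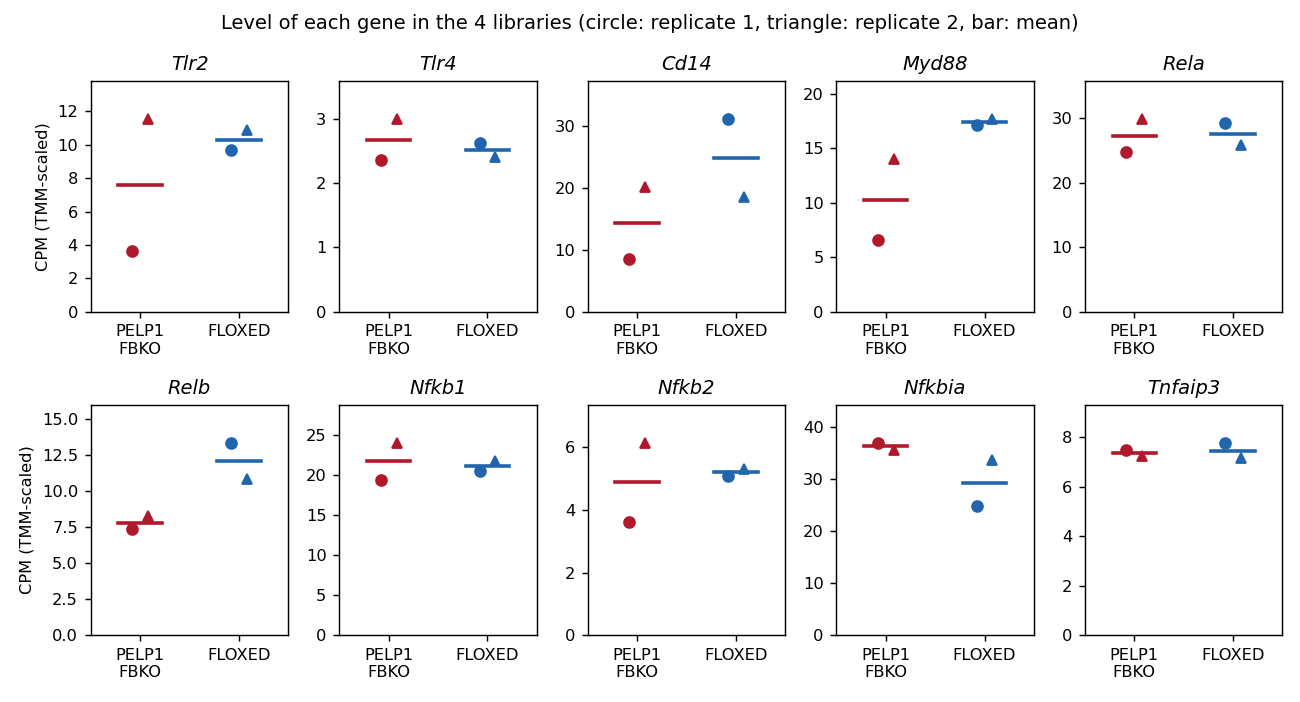
TMM-scaled CPM of each of the 10 genes on an axis from 0, with PELP1 FBKO at the left and FLOXED at the right of each panel, replicate 1 as a circle, replicate 2 as a triangle and the mean of the 2 libraries as a bar. The PELP1 FBKO points of Relb and Myd88 lay below those of FLOXED and the PELP1 FBKO points of Nfkbia lay above, while the other 7 genes overlapped.

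Tlr2, Cd14 and Myd88 were lowest in PELP1 FBKO 1, and in PELP1 FBKO 2 only Myd88 of the 3 lay below both FLOXED libraries. Tlr2, a receptor for bacterial lipoproteins, was at 3.63 and 11.5 CPM in PELP1 FBKO and at 9.70 and 10.9 CPM in FLOXED. In CPM PELP1 FBKO 1, with 80 reads, was the lowest library. PELP1 FBKO 2 was the highest for Tlr2, with 235 reads against 236 in FLOXED 2. Its log2 fold change was -0.45 (SE 0.440, edgeR adjusted p = 0.666), against a log2 difference of -1.64 between the 2 PELP1 FBKO libraries and of -0.17 between the FLOXED libraries.

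Cd14, the co-receptor that hands lipopolysaccharide to the TLR4 complex, was at 8.52 and 20.1 CPM in PELP1 FBKO and at 31.0 and 18.5 CPM in FLOXED. PELP1 FBKO 1 was again the lowest, but PELP1 FBKO 2 lay above FLOXED 2, so the genotypes overlapped. The log2 fold change was -0.79 (SE 0.388, edgeR adjusted p = 0.379), and the PELP1 FBKO libraries differed from each other by -1.23 and the FLOXED libraries by 0.75 on the log2 scale.

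Myd88 encodes the adaptor that most Toll-like receptors and the interleukin-1 receptors share. It stood at 6.53 and 14.01 CPM in PELP1 FBKO and at 17.1 and 17.6 CPM in FLOXED. Both PELP1 FBKO libraries lay below both FLOXED libraries, which were close to each other. The log2 fold change was -0.76 (SE 0.315, edgeR adjusted p = 0.298). In the GENCODE M21 annotation 290 bases of its exons overlap Acaa1a on the other strand, and with the strand setting of the counting not given, reads from that stretch cannot be assigned to either gene.

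Tlr4, the receptor for lipopolysaccharide, was the least abundant of the 10 and did not share this pattern. It had 2.36 and 2.99 CPM in PELP1 FBKO and 2.62 and 2.40 CPM in FLOXED, from 46 to 61 reads a library. The libraries of the genotypes overlapped, and the log2 fold change was 0.09 (SE 0.292, edgeR adjusted p = 0.916).

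Which PELP1 FBKO library was kept decided the values of Tlr2, Cd14 and Myd88. Without PELP1 FBKO 2 their log2 fold changes were -1.50, -1.53 and -1.41, with edgeR adjusted p = 0.000268, 1.27e-05 and 0.000136 in the same order. In that fit the lone PELP1 FBKO library is assumed to vary as the FLOXED libraries do. Without PELP1 FBKO 1 the log2 fold changes were 0.14, -0.31 and -0.33, with edgeR adjusted p = 0.961, 0.789 and 0.771. Cd14 also moved with the FLOXED library kept, to -0.37 without FLOXED 1 and -1.13 without FLOXED 2 (edgeR adjusted p = 0.843 and 0.128). PELP1 FBKO 1 was at least 2-fold below PELP1 FBKO 2, on the log2 CPM scale, in these 3 of the 10 genes, against 3.27% of all tested genes. The FLOXED libraries were at least 2-fold apart in 0 of the 10, against 2.27% of all tested genes. PELP1 FBKO 1 was the lowest of the 4 libraries in 8 of the 10, against 26.1% of all tested genes. The exceptions were the feedback inhibitors Nfkbia and Tnfaip3.

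**Figure D2:**
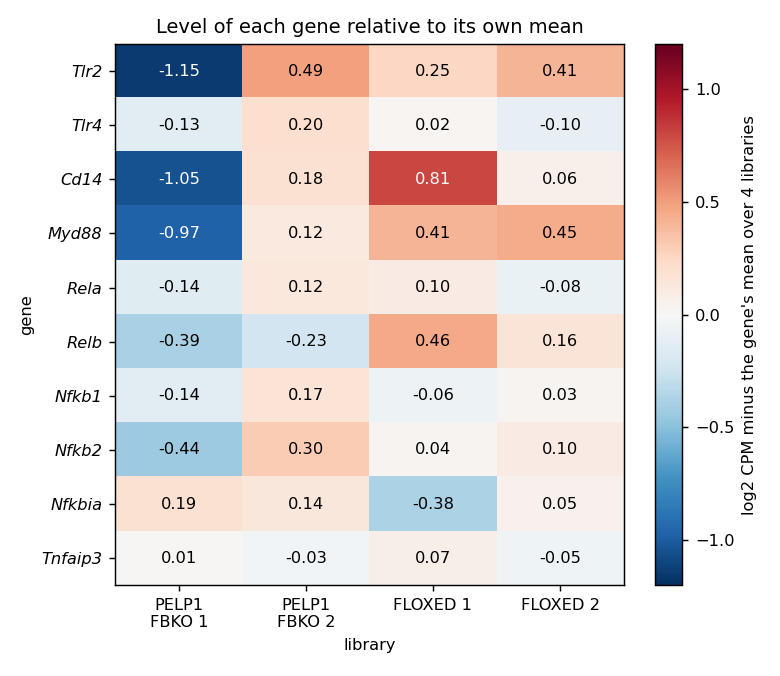
Log2 CPM of each of the 10 genes minus the gene's own mean over the 4 libraries, with PELP1 FBKO libraries at the left, FLOXED libraries at the right and the value printed in each cell. Tlr2, Cd14 and Myd88 stood at -1.15, -1.05 and -0.97 in PELP1 FBKO 1 and at 0.49, 0.18 and 0.12 in PELP1 FBKO 2.

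Of the 4 NF-kB subunit genes 1, Relb, lay wholly below FLOXED in PELP1 FBKO. That count is near the 23.0% of all tested genes that did so. Relb encodes the subunit that pairs with the processed product of Nfkb2 in the noncanonical branch of the pathway, and its own transcription is raised by NF-kB. It was at 7.39 and 8.28 CPM in PELP1 FBKO and at 13.3 and 10.8 CPM in FLOXED, from 163 and 169 reads in PELP1 FBKO and 234 and 235 reads in FLOXED. Both PELP1 FBKO libraries lay below both FLOXED libraries, and the PELP1 FBKO libraries lay close together. The log2 fold change was -0.62 (SE 0.198), the smallest p of the 10 genes, but it did not pass the threshold (edgeR adjusted p = 0.195). With each library left out in turn it ranged from -0.78 to -0.47, and over 12 alternatives the adjusted p ranged from 0.0874 to 0.534.

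In the remaining subunit genes the libraries of the genotypes overlapped. Rela encodes the transactivating subunit of the canonical dimer. It was at 24.7 and 29.8 CPM in PELP1 FBKO and at 29.3 and 25.8 CPM in FLOXED, and each PELP1 FBKO library had a FLOXED library near its own level. Its log2 fold change was -0.015 (SE 0.163, edgeR adjusted p = 0.975), and its sign turned with the scaling, to 0.018 with upper-quartile factors.

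Nfkb1, whose precursor is processed to the DNA-binding partner of RelA, was at 19.4 and 24.0 CPM in PELP1 FBKO and at 20.5 and 21.8 CPM in FLOXED. The FLOXED values lay between the PELP1 FBKO values, and the log2 fold change was 0.036 (SE 0.168, edgeR adjusted p = 0.944). Nfkb2, the precursor gene of the noncanonical branch, was at 3.63 and 6.12 CPM in PELP1 FBKO and at 5.08 and 5.30 CPM in FLOXED. Here too the FLOXED values lay between those of PELP1 FBKO, whose libraries differed by -0.74 on the log2 scale. The log2 fold change of Nfkb2 was -0.094 (SE 0.289, edgeR adjusted p = 0.910), and 299 bases of its exons overlap Psd on the other strand.

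The feedback inhibitors did not follow the receptors. Nfkbia encodes the inhibitor that holds NF-kB dimers in the cytoplasm and is among the first genes NF-kB induces. Its window above has a kappaB match close to the start site, as do windows of Tlr2, Nfkb2 and Tnfaip3. Nfkbia was at 36.8 and 35.6 CPM in PELP1 FBKO and at 24.9 and 33.6 CPM in FLOXED. Both PELP1 FBKO libraries lay above both FLOXED libraries, and FLOXED 1 was the lowest of the 4. The log2 fold change was 0.31 (SE 0.174, edgeR adjusted p = 0.438). It was 0.11 without FLOXED 1 and 0.53 without FLOXED 2 (edgeR adjusted p = 0.841 and 0.0796). Tnfaip3 encodes a ubiquitin-editing enzyme that shuts down signalling upstream of the inhibitor kinases. It was at 7.48 and 7.25 CPM in PELP1 FBKO and at 7.76 and 7.15 CPM in FLOXED, the narrowest spread of the 10 genes. The log2 fold change of Tnfaip3 was -0.016 (SE 0.196, edgeR adjusted p = 0.980), with a sign that turned to 0.016 under upper-quartile factors.

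**Figure D3:**
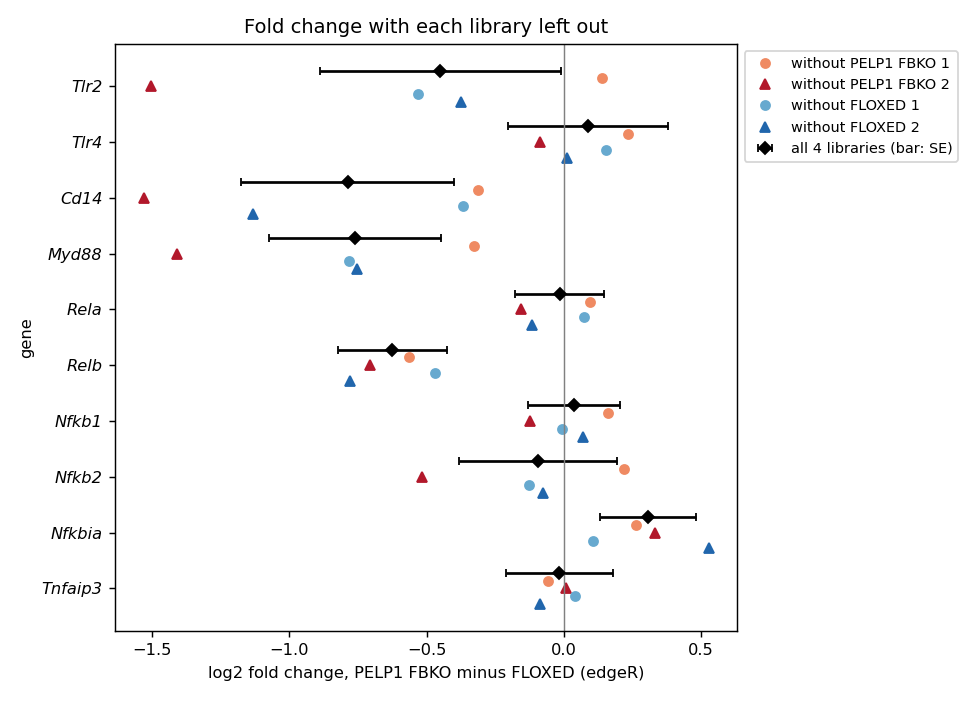
Log2 fold change (PELP1 FBKO minus FLOXED) of each of the 10 genes with all 4 libraries, shown as a diamond with its SE, and with each library left out in turn. Relb, Cd14 and Myd88 stayed below 0 and Nfkbia above 0 in each of these fits, while Tlr2 ran from -1.50 to 0.14.

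Per length, the 10 genes spanned a wide range of levels. Levels in RPKM, which divide by transcript length as well as library size, were taken with the longest coding transcript of GENCODE M21, an annotation newer than the one the reads were counted on. Averaged over the 4 libraries, Nfkbia came first at 20.7 RPKM, followed by Cd14 at 11.9, Rela at 10.1, Myd88 at 7.05, Nfkb1 at 5.21, Relb at 4.51, Tlr2 at 2.96, Tnfaip3 at 1.68, Nfkb2 at 1.31 and Tlr4 at 0.636 RPKM. The libraries of neighbours in this order overlapped except between Rela and Myd88, between Tnfaip3 and Nfkb2, and between Nfkb2 and Tlr4. Cd14 had the broadest range, 5.19 and 12.3 RPKM in PELP1 FBKO and 18.9 and 11.2 RPKM in FLOXED.

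Patterns were compared by the root mean square difference in log2 CPM, centred on each gene's mean, over the 4 libraries. Tlr2 and Myd88 were each other's nearest gene among the 10, at 0.222, and Myd88 was nearest to Cd14, at 0.283. Tlr4 and Rela, both nearly level, were nearest to each other at 0.0569. Among all tested genes the patterns most like that of Relb were those of the tyrosyl-tRNA synthetase gene Yars at 0.0188, the histone gene Hist3h2ba at 0.0214 and Ahsa1, a co-chaperone of HSP90, at 0.0302. With 4 libraries, this likeness is a description.

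The wider pathway was counted over lists written from general knowledge, but with earlier results of these data known. Each list gave 0 genes past the threshold in edgeR's test. Of 16 other Toll-like receptors and co-receptors 13 were tested, with 9 positive and 4 negative log2 fold changes and a median of 0.18. At an unadjusted p under 0.05 edgeR gave 2 of these 13, both higher, against 10.1% of all genes on that side, so the count was near the background. Unc93b1 encodes the chaperone that carries the endosomal Toll-like receptors to their compartment. It was at 19.9 and 22.6 CPM in PELP1 FBKO and at 13.3 and 10.9 CPM in FLOXED, without overlap, a log2 fold change of 0.81 (SE 0.179, edgeR adjusted p = 0.0998, DESeq2 adjusted p = 0.0308). It was 0.88 without PELP1 FBKO 1 and 0.72 without PELP1 FBKO 2 (edgeR adjusted p = 0.0233 and 0.104). Lbp, the lipopolysaccharide-binding protein gene, was at 5.71 and 11.0 CPM in PELP1 FBKO and at 2.79 and 3.92 CPM in FLOXED, a log2 fold change of 1.30 (SE 0.347, edgeR adjusted p = 0.142, DESeq2 adjusted p = 0.0424). It was 0.76 without PELP1 FBKO 2 and 1.68 without PELP1 FBKO 1 (edgeR adjusted p = 0.289 and 1.81e-05). Tlr12, a receptor for profilin, was at 1.27 and 1.08 CPM in PELP1 FBKO and at 0.684 and 0.600 CPM in FLOXED, from 12 to 28 reads. Cd180, a receptor-like relative of TLR4, repeated the order seen in Cd14, with 3.72 and 10.6 CPM in PELP1 FBKO and 15.9 and 9.41 CPM in FLOXED. Its log2 fold change was -0.82 (SE 0.448, edgeR adjusted p = 0.422), -1.76 without PELP1 FBKO 2 (edgeR adjusted p = 4.32e-06) and -0.27 without PELP1 FBKO 1 (edgeR adjusted p = 0.867). On the other strand 182 bases of its exons overlap Mast4.

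The intracellular relay was flatter. All 19 other adaptors and kinases were tested. Their log2 fold changes, 10 positive and 9 negative, ran from -0.22 to 0.67 with a median of 0.049. Of the 19, edgeR gave 0 at an unadjusted p under 0.05, against 15.6% of all genes. Tbk1, a kinase of the interferon branch, was at 59.6 and 61.2 CPM in PELP1 FBKO and at 70.3 and 70.6 CPM in FLOXED, a log2 fold change of -0.22 (SE 0.122, edgeR adjusted p = 0.424). Chuk, a catalytic subunit of the IkB kinase, had -0.22 (SE 0.148), and Tab2, a partner of the kinase TAK1, had 0.18 (SE 0.131). Ticam2, an adaptor of TLR4, had 0.67 (SE 0.357) from 22 to 41 reads, and its counts are uncertain because it shares 838 bases of exon with Tmed7 on the same strand.

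Of 6 other NF-kB and IkB proteins 5 had negative values, with a median of -0.23. Of the 6, edgeR gave 0 at an unadjusted p under 0.05, against 15.6% of all genes. Nfkbiz, an inducible nuclear IkB protein, was at 7.89 and 9.21 CPM in PELP1 FBKO and at 11.1 and 10.3 CPM in FLOXED, a log2 fold change of -0.32 (SE 0.190, edgeR adjusted p = 0.453). Nfkbib, Nfkbid and Rel lay between -0.28 and -0.16. All 6 genes were lowest in PELP1 FBKO 1, against 26.1% of all tested genes, though Rel had only 14 to 21 reads a library. Of 13 other inhibitors 12 were tested, 6 positive and 6 negative, with a median of -0.022. EdgeR gave 1 of the 12, higher, at an unadjusted p under 0.05, near the 10.1% of all genes on that side. That gene was Otud7b, a deubiquitinase of the noncanonical branch, at 81.1 and 77.1 CPM in PELP1 FBKO and at 39.1 and 63.4 CPM in FLOXED, a log2 fold change of 0.62 (SE 0.212, edgeR adjusted p = 0.221). It was 0.32 without FLOXED 1 and 1.00 without FLOXED 2 (edgeR adjusted p = 0.442 and 0.0207). Tnip1, a partner of the protein made by Tnfaip3, was at 31.4 and 30.3 CPM in PELP1 FBKO and at 39.1 and 37.0 CPM in FLOXED, with a log2 fold change of -0.30 (SE 0.137, edgeR adjusted p = 0.340). Tnfaip8l2 and Irak3 had 0.54 (SE 0.329) and 0.46 (SE 0.362). Tnfaip8l2 had 0.86 when PELP1 FBKO 1 was left out, 0.12 when PELP1 FBKO 2 was and 0.36 when FLOXED 2 was. Irak3 had 0.22 when PELP1 FBKO 2 was left out and 0.64 when PELP1 FBKO 1 was, and neither gene passed the threshold with any library left out.

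**Figure D4:**
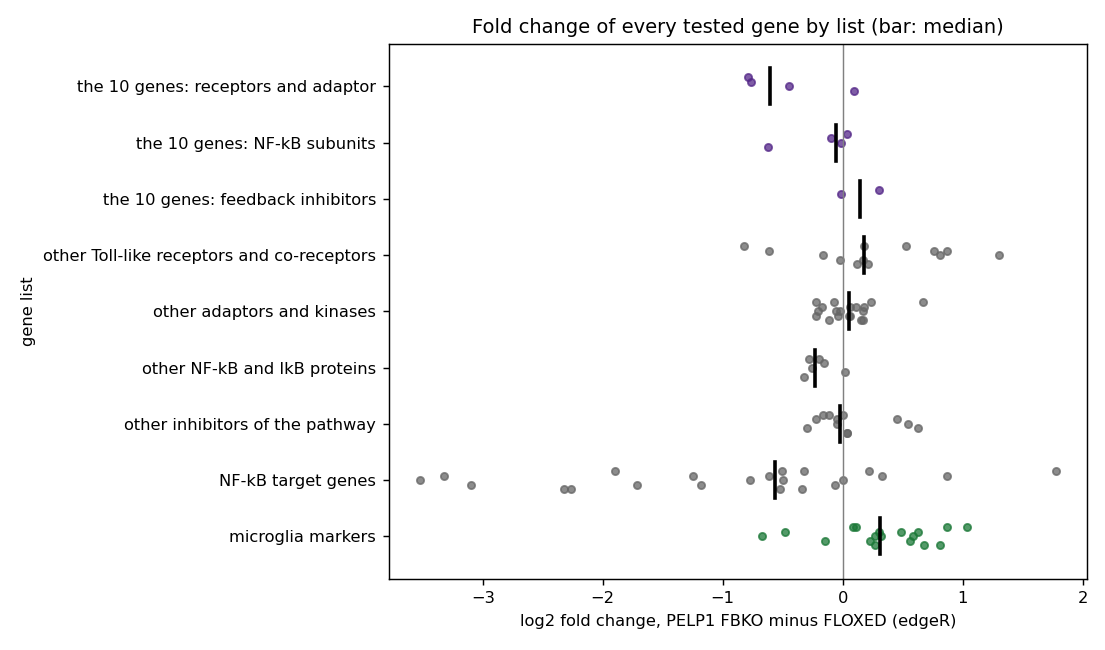
Log2 fold change (PELP1 FBKO minus FLOXED) of every tested gene, 1 point a gene, in the 10 genes by role, in the other pathway lists, in NF-kB target genes and in microglia markers, with the median as a black bar. Medians were -0.61 for receptors and adaptor, -0.055 for NF-kB subunits, 0.15 for feedback inhibitors, -0.57 for NF-kB target genes and 0.31 for microglia markers.

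Genes that NF-kB is known to induce were mostly on the lower side, with the same library lowest. Of 31 listed 22 were tested, 18 negative and 4 positive, with a median of -0.57. At an unadjusted p under 0.05 edgeR gave 9 lower and 2 higher, against 5.55% of all genes lower and 10.1% higher. The libraries of the genotypes did not overlap in 14 lower and 2 higher genes, against 23.0% of all genes wholly below and 25.4% wholly above. PELP1 FBKO 1 was the lowest library in 19 of the 22, against 26.1% of all tested genes. It was at least 2-fold below PELP1 FBKO 2 in 10, against 3.27% of all tested genes. This list shares genes with cytokine lists already examined in these data, so its direction is not independent evidence.

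The 4 target genes with the smallest p were chemokines. Cxcl10 had 16 and 243 reads in PELP1 FBKO and 726 and 1425 in FLOXED, or 0.725 and 11.9 CPM in PELP1 FBKO against 41.4 and 65.7 CPM in FLOXED, and 133 bases of its exons overlap Art3 on the other strand. Its log2 fold change was -3.10 (SE 0.814, edgeR adjusted p = 0.140), -2.19 without PELP1 FBKO 1 and -6.19 without PELP1 FBKO 2 (edgeR adjusted p = 7.12e-11 and 3.83e-47). Ccl7 had 1 and 15 reads in PELP1 FBKO and 58 and 95 in FLOXED, a log2 fold change of -3.32 (SE 0.687, edgeR adjusted p = 0.0910, DESeq2 adjusted p = 0.000632). It was -2.40 without PELP1 FBKO 1 and -6.23 without PELP1 FBKO 2 (edgeR adjusted p = 0.000222 and 3.24e-12). Ccl2 had a log2 fold change of -3.52 (SE 0.655, edgeR adjusted p = 0.0766), -2.64 without PELP1 FBKO 1 and -6.05 without PELP1 FBKO 2 (edgeR adjusted p = 6.67e-11 and 3.44e-29). Ccl5 had 5 and 10 reads in PELP1 FBKO and 26 and 26 in FLOXED, a log2 fold change of -1.89 (SE 0.498, edgeR adjusted p = 0.140). Its value was -1.45 without PELP1 FBKO 1 and -2.52 without PELP1 FBKO 2 (edgeR adjusted p = 0.306 and 0.0315). DESeq2 called Ccl7 alone of the 4, with adjusted p = 0.170 for Ccl2, 0.373 for Cxcl10 and 0.279 for Ccl5. In all 4 both PELP1 FBKO libraries lay below both FLOXED libraries.

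**Figure D5:**
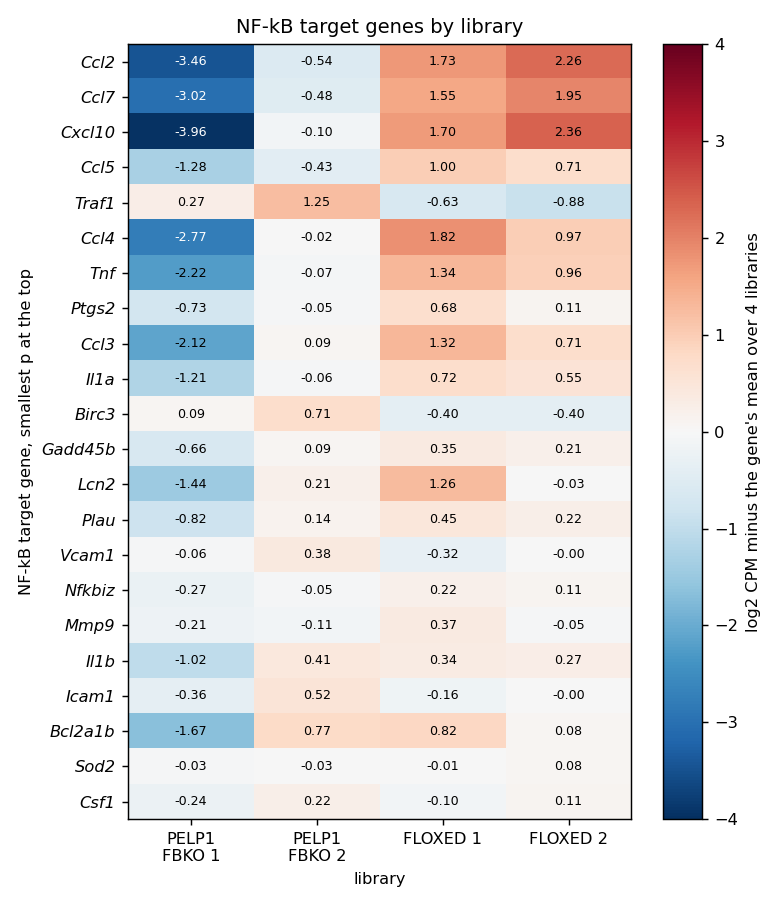
Log2 CPM of the 22 tested NF-kB target genes minus each gene's mean over the 4 libraries, PELP1 FBKO libraries at the left and FLOXED libraries at the right, ordered by p. PELP1 FBKO 1 was the lowest library in 19 of the 22 genes, against 26.1% of all tested genes. The median gene stood at -0.92 there, at 0.037 in PELP1 FBKO 2, and at 0.56 and 0.16 in the FLOXED libraries.

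Microglia markers were mostly, but not all, on the higher side. All 18 microglia markers were tested, 15 with positive log2 fold changes and a median of 0.31. At an unadjusted p under 0.05 edgeR gave 6 higher and 2 lower, against 10.1% and 5.55% of all genes. Their summed level was 1074 and 1482 CPM in PELP1 FBKO and 1018 and 929 CPM in FLOXED. Csf1r, the receptor that microglia need to survive, was at 166 and 177 CPM in PELP1 FBKO and at 90.9 and 104 CPM in FLOXED, and its exons overlap Hmgxb3 on the other strand. Cx3cr1, the fractalkine receptor, was at 70.4 and 94.0 CPM in PELP1 FBKO and at 67.2 and 66.2 CPM in FLOXED. The 2 lower ones, named after their values were seen, were Fcrls, at 31.9 and 42.8 CPM in PELP1 FBKO and 57.6 and 61.3 CPM in FLOXED, and Olfml3, at 17.9 and 24.1 CPM in PELP1 FBKO and 26.1 and 32.4 CPM in FLOXED. None of the 18 was at least 2-fold lower in PELP1 FBKO 1 than in PELP1 FBKO 2. Of all tested genes 3.27% were, so the count was near the background. In bulk tissue, fewer cells of a type and less RNA per cell cannot be told apart.

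Markers of blood myeloid cells and border macrophages were near the limit of detection. Of 14 listed, 12 were in the files and 5 were tested, and the 12 summed to 9.02 and 14.8 CPM in PELP1 FBKO and 9.07 and 10.1 CPM in FLOXED. S100a8, a neutrophil calgranulin, had 0 and 11 reads in PELP1 FBKO and 7 and 10 in FLOXED. The 0 allows up to 0.136 CPM, taking 3 reads as the floor, which covers counting error only. Ccr2, the monocyte receptor for Ccl2, had 7 and 12 reads in PELP1 FBKO and 4 and 8 in FLOXED. Endothelial and mural markers summed to 456 and 436 CPM in PELP1 FBKO and 281 and 365 CPM in FLOXED, with 14 of 14 positive. Astrocyte markers summed to 8185 and 10070 CPM in PELP1 FBKO and 6318 and 7140 CPM in FLOXED, with 12 of 12 positive, and oligodendrocyte markers to 5627 and 6012 CPM in PELP1 FBKO and 2819 and 3581 CPM in FLOXED, with 8 of 8 positive. Hippocampal neuron markers summed to 5707 and 4548 CPM in PELP1 FBKO and 5982 and 5880 CPM in FLOXED, with 3 of 10 positive. The part of these cell types in the values of the 10 genes was not tested.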

How the data were processed

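Libraries of 50-base single reads were sequenced from the hippocampus of 2 PELP1 FBKO and 2 FLOXED samples, per the labels' protocols. The deposited values are unnormalized counts of reads for each gene symbol. CASAVA 1.8.2, TopHat2 2.0.8b, HTSeq and the mm9 build are listed in the submitters' processing notes, while the series text names a human build, although the symbols are mouse. The sources used here give no strand or overlap setting. Alignments that were not unique were not counted. They were 47.7% of all alignments in FLOXED 1 and between 38.5% and 41.5% in the other libraries. Of the rest between 14.7% and 15.7% lay in no gene. Gene reads came to between 17524594, in FLOXED 1, and 22447658, in PELP1 FBKO 1.

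Counts were tested with edgeR 4.0.16 in R 4.3.3 (TMM, filterByExpr, quasi-likelihood F test of genotype, Benjamini-Hochberg over 14978 genes, threshold 0.05), checked on simulated data. SEs were derived from the F statistic. DESeq2 1.42.0 and limma-voom (limma 3.58.1), other scalings and filters, a replicate block and leaving out each library were alternatives. Centred log2 CPM used a prior count of 2. All 10 members were named, with up to 4 genes of smallest p from each pathway list and the 3 genes nearest to the member with the smallest p. Members and lists were chosen with earlier results of these data known. No batch is given in the labels.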

Additional observations from a re-analysis of the deposited data

How the results depend on the processing

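None of the 10 genes passed the threshold of 0.05 under other scalings, filters, DESeq2 or limma-voom. Over all tested genes, where edgeR's quasi-likelihood test called 0, it called 17 with DESeq2 size factors, 42 with upper-quartile factors, 359 without the filter and 43 when each library had to hold 50 reads of a gene, and DESeq2 called 449. Leaving out each library in turn gave 0 to 598 genes, and 0 to 3 of the 10. Over the pathway and target lists 0 genes were called, against 4 without the filter, 3 by DESeq2 and 0 to 14 with a library left out. The median log2 fold change of the 10 ran from -0.33 to 0.12 with a library left out.

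Signs turned with a library left out for Tlr2 (-1.50 to 0.14), Tlr4 (-0.087 to 0.23), Nfkb1 (-0.12 to 0.16), Nfkb2 (-0.52 to 0.22), Rela (-0.15 to 0.094), Tnfaip3 (-0.086 to 0.042), Nfkbib (-0.35 to 0.042) and Nfkbid (-0.51 to 0.0031), and under upper-quartile factors for Rela (0.018) and Tnfaip3 (0.016). Relb, Cd14, Myd88 and Nfkbia kept their direction in the 12 alternatives. With at least 50 reads in every library Tlr4 was not tested.

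The labels do not say that a replicate number pairs libraries, and the correlation of the replicate differences of the genotypes was -0.118 over genes. With the replicate block 566 of 14978 genes were called. They held 1 of the 10 (Myd88, log2 fold change -0.84, edgeR adjusted p = 0.0476) and 9 of the 71 tested pathway and target genes. A crossed pairing, added after that correlation was seen, called 314 of 14978 genes, 0 of the 10 and 4 of the 71 listed genes.

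With 2 libraries a genotype, the PELP1 FBKO libraries differing by over 2-fold in Tlr2, Cd14 and Myd88, and under 70 reads a library for Tlr4, differences of the size seen here could not be told from the spread between libraries.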
